A study of Mus musculus with 9 samples.

Results

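A group of 47 genes of mitosis was followed through 9 RNA samples of C2C12 cells, a mouse myoblast line that stops dividing and fuses into multinucleated myotubes when serum is withdrawn. The genes were listed by their known roles in mitotic entry, the spindle checkpoint, the kinetochore, the spindle, cytokinesis and chromosome structure. These genes were not picked by a rule on the measured values, but earlier results of these data were known when they were chosen. They are 47 of the 52780 genes in the deposited counts, and each of them passed the filter on low counts and was among the 19545 genes tested. All samples came from day 4 of differentiation. The 3 controls are labelled wild type and carry no siRNA in their labels, although a scramble siRNA is among the study's reagents. The 3 si mH2A1.1 samples and the 3 si mH2A1.2 samples received siRNA at 10 nM against the macroH2A1.1 or the macroH2A1.2 splice isoform of the histone variant macroH2A1, given repeatedly around the start of differentiation. The study asked how the isoforms differ in their effect on myotube formation and on gene expression, and its text describes the samples of a group as independent biological replicates of this line.

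Mitosis genes are read together late in the cell cycle. Cdk1 with its cyclins starts mitosis, kinetochores attach chromosomes to spindle microtubules, the spindle checkpoint holds the anaphase-promoting complex until every chromosome is attached, and separase then cuts the cohesin rings. In the phases of the cycle in which these proteins are not needed, and in cells that have left the cycle, the DREAM complex keeps such genes silent, and the MuvB core of this complex later joins Mybl2 and Foxm1 to activate them. Differentiating C2C12 cultures leave the cycle as they form myotubes, but a fraction of mononucleated cells, the reserve cells, stays outside the myotubes.

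Fold changes are given on the log2 scale with their standard error (SE). Libraries held 36924252 to 42223108 counts, so that 3 counts stood for 0.0691 to 0.0826 CPM (counts scaled to library size, here with TMM factors). Neither the labels nor the study's text names a batch. H2afy, the gene of both macroH2A1 isoforms, was at 56.3, 62.4 and 61.03 CPM in the controls, 38.8, 30.01 and 30.9 CPM with si mH2A1.1 and 46.8, 47.2 and 43.2 CPM with si mH2A1.2. Each knockdown sample was below each control, with a log2 fold change of -0.85 ± 0.11 (edgeR adjusted p = 0.00331) for si mH2A1.1 and -0.39 ± 0.11 (edgeR adjusted p = 0.108) for si mH2A1.2, but the counts sum the isoforms and cannot show which of them fell. Markers of myotubes were present in every group, with Myog, a differentiation factor, at 624, 628 and 745 CPM in the controls. Within each group, libraries differed in the level of the mitosis genes. Replicate 1 of si mH2A1.1 was the highest of the 9 samples for 47 of 47 members, a position it held for 23.3% of all genes tested, and replicate 2 was the lowest of its group for 47 of 47 (35.1% of all genes). Control 1 was the highest control for 45 members (33.0% of all genes), control 3 the lowest for 46 (31.5%), and replicate 1 of si mH2A1.2 the highest of its group for 44 (39.2%). The sample numbered 1 was thus the highest in every group for most members, and the cause of this was not tested. Results are therefore given with and without single libraries.

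The mitosis genes were higher with si mH2A1.1 than with si mH2A1.2. In that comparison 43 of 47 members rose at an edgeR adjusted p of 0.05 or less, against 12.0% of all genes tested called higher and 10.5% called lower, and no member was called lower by edgeR or DESeq2 or at an unadjusted p below 0.05. The median log2 fold change of the members was 1.15, or 2.21-fold, beside a median of -0.01 for all genes, and single members ranged from 0.27 (Smc4) to 1.49 (Birc5). For 44 of 47 members all 3 si mH2A1.1 samples lay above all 3 si mH2A1.2 samples, as they did for 20.3% of all genes. The members that were not called were Kif18a, Smc4, Spc24 and Ndc80, and the samples overlapped for Kif18a, Smc4 and Mybl2. In bulk RNA, fewer cells of a kind and less RNA per cell cannot be told apart. The count was 24 without si mH2A1.1 replicate 1 and 20 without si mH2A1.2 replicate 2, where 6.43% and 6.04% of all genes were called higher, while every member kept a log2 fold change above 0 in all alternatives run. Under a stricter rule, with an adjusted p below 0.01 and a log2 change of 0.8 or more in size, 17 members were called, against 3.54% of all genes called higher.

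The controls lay between the knockdowns for most members. With si mH2A1.1 all 47 members had a log2 fold change above 0 against the controls (49.1% of all genes did), with a median of 0.71 (1.63-fold) and a range from 0.18 (Smc4) to 1.35 (Mybl2). In this comparison 4 of 47 members were called higher by edgeR, beside 6.18% of all genes called higher and 4.93% called lower, and these were Kif11, Plk1, Birc5 and Kif23. No member was called lower by edgeR or by DESeq2. At an unadjusted p below 0.05 in edgeR, 38 were higher, as were 3015 of all 19545 genes tested. The 3 si mH2A1.1 samples were above all controls for 14 of 47 members, and for 17.5% of all genes. Under the stricter rule edgeR called 0 of 47 members, beside 1.31% of all genes called higher. The number of calls moved with single libraries, for the members and for all genes. There were 33 calls without si mH2A1.1 replicate 2 (8.18% of all genes called higher), 9 without si mH2A1.2 replicate 1 (6.71%), 1 without si mH2A1.2 replicate 3 (5.59%) and 0 without control 2, control 3, si mH2A1.1 replicate 1, si mH2A1.1 replicate 3 or si mH2A1.2 replicate 2 (1.92% to 4.57%). DESeq2 called 24. With the replicate number in the model as a block, edgeR called 38 members higher, beside 11.1% of all genes called higher. The median log2 fold change was 0.39 without si mH2A1.1 replicate 1 and 0.92 without si mH2A1.1 replicate 2.

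With si mH2A1.2, 44 of 47 members had a log2 fold change below 0 against the controls (50.0% of all genes did), and Ndc80, Kif18a and Mybl2 were at or slightly above 0. The median was -0.41, or 1.32-fold lower, and the range ran from -0.79 (Ube2c) to 0.18 (Kif18a). No member was called by edgeR in either direction, where 0.982% of all genes were called lower and 1.37% higher. DESeq2 called 1 member lower, Anln, beside 1.32% of all genes with any count. At an unadjusted p below 0.05 in edgeR, 11 members were lower, as were 1511 of all 19545 genes tested. The role group counts below are to be read beside these values for all genes. All 3 si mH2A1.2 samples were below all controls for 9 of 47 members, and for 10.8% of all genes. Without si mH2A1.1 replicate 1, which enters this comparison only through the shared estimate of the spread, edgeR called 2 members lower, Ccnb2 and Pttg1. In that fit 1.07% of all genes were called lower. The median log2 fold change was -0.64 without si mH2A1.2 replicate 1. Same-numbered control and si mH2A1.2 samples deviated from their group means together. When the replicate number entered the model as a block, edgeR called 4 members lower, Ube2c, Cenpf, Nusap1 and Anln, beside 2.25% of all genes, and none of the 47 higher. Both knockdowns were set against the same 3 controls, so a control library that is high or low moves the log2 fold changes of both in the same direction. Without control 1, the control with the highest sum of the members, the medians were 0.87 in the first comparison with the controls and -0.25 in the second.

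**Figure D1:**
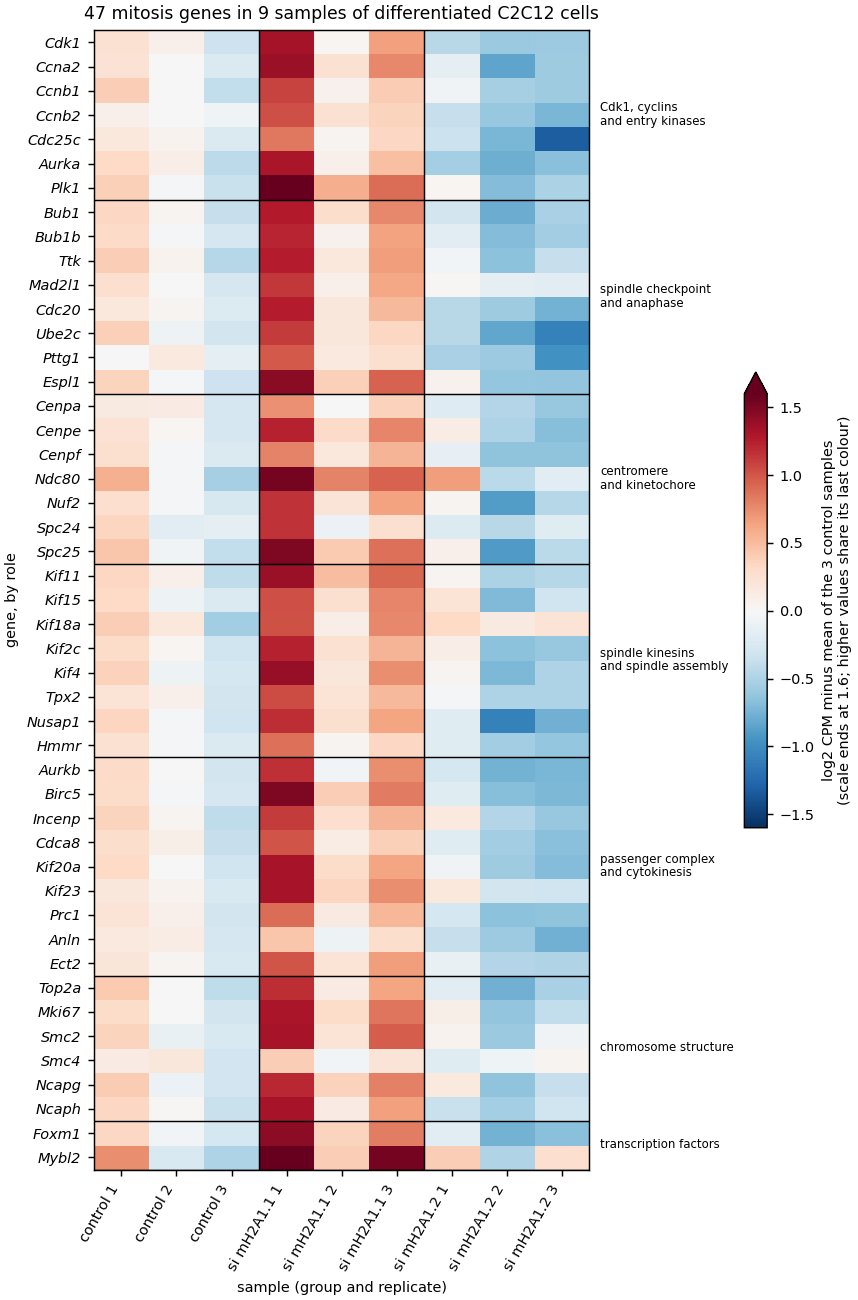
Level of each of the 47 mitosis genes (rows, grouped by role) in each of the 9 samples (columns), as log2 CPM minus the mean of the 3 controls. The median over the members was 0.31, 0.00076 and -0.29 in controls 1 to 3, 1.21, 0.21 and 0.65 in the si mH2A1.1 samples and -0.13, -0.61 and -0.57 in the si mH2A1.2 samples.

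The members moved together from sample to sample. Relative to the control mean, the median member was at 1.21, 0.21 and 0.65 on the log2 scale in the si mH2A1.1 samples and at -0.13, -0.61 and -0.57 in the si mH2A1.2 samples, and the controls themselves spread from 0.31 to -0.29. The median of all genes stayed within 0.01 of 0 in each sample. Members above the control mean numbered 47, 24 and 0 in the controls, 47, 42 and 47 with si mH2A1.1, and 18, 1 and 3 with si mH2A1.2. In the heat map of members by sample most columns are largely of the same sign. The columns of control 2 and si mH2A1.2 replicate 1 are mixed. Since all members of a sample come from the same library, their agreement within a sample does not add replicates. Summed over the members, the level was 1608, 1358 and 1076 CPM in the controls, 2849, 1499 and 2013 CPM with si mH2A1.1 and 1218, 894 and 938 CPM with si mH2A1.2. The sums of si mH2A1.1 replicate 2 and control 1 crossed, and those of si mH2A1.2 replicate 1 and control 3 crossed too, whereas the sums of the knockdowns did not overlap each other.

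**Figure D2:**
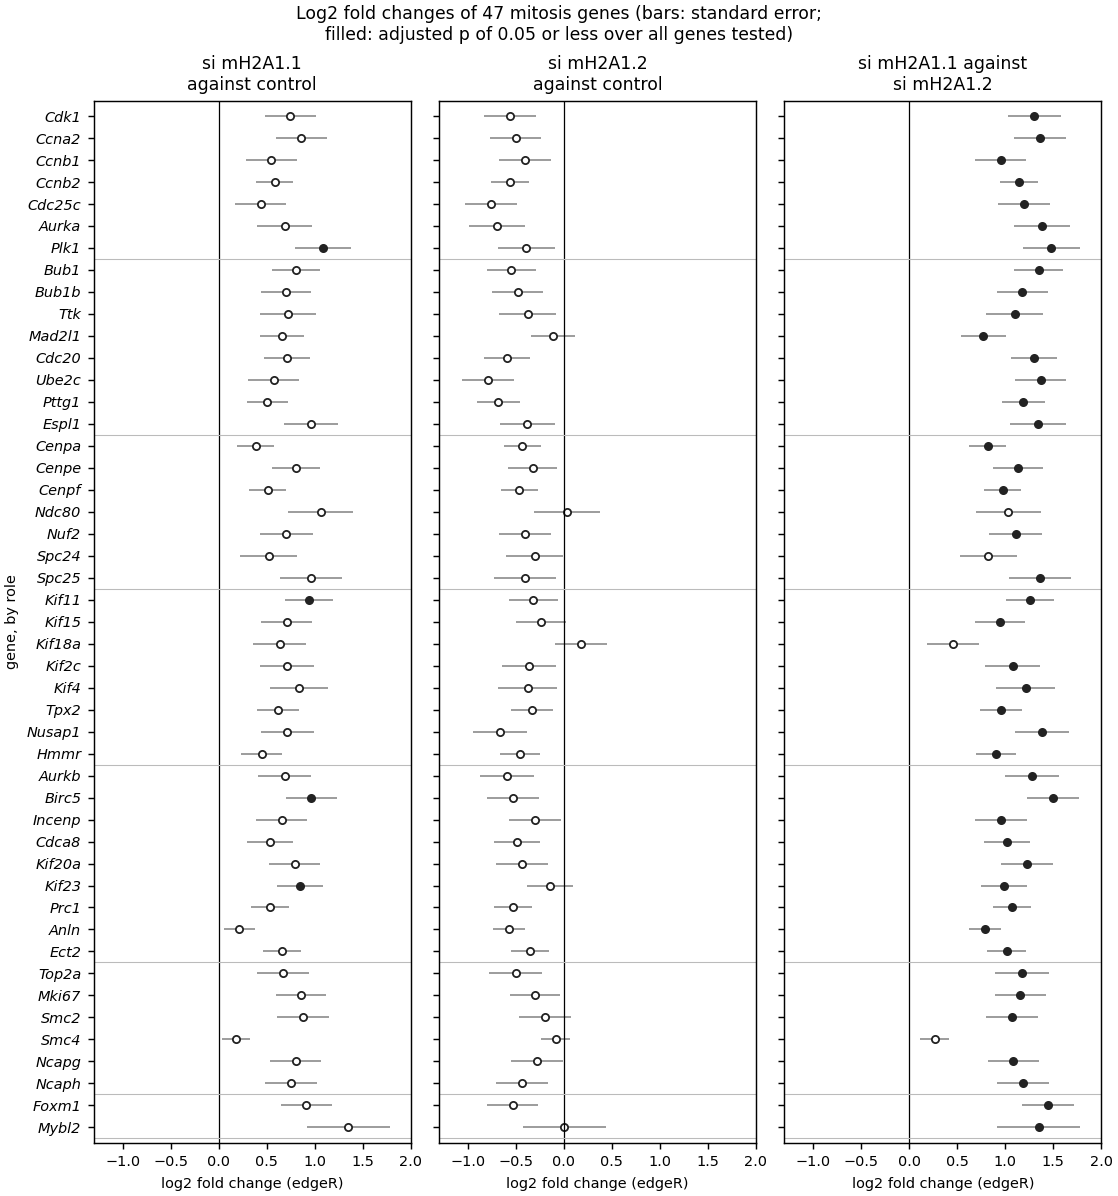
Log2 fold change (x axis, edgeR) of each of the 47 members (y axis, grouped by role) in the 3 comparisons, with bars for the standard error and filled points at an adjusted p of 0.05 or less over all genes tested. Filled points number 4 in the first panel, 0 in the second and 43 in the third.

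Promoters of the members shared letters of the cell cycle elements known from mitosis genes. The cell cycle genes homology region (CHR) is the element that the MuvB core binds, and CCAAT boxes are bound by NF-Y. RefSeq promoter windows on GRCm38.p6, from 250 bases before the start of a gene to 50 bases after it, were at hand for 38 of 47 members (40 windows). None was at hand for Kif20a, Spc24, Aurkb, Tpx2, Cdc25c, Smc4, Ccna2, Foxm1 and Incenp. Searched on both strands, the CHR letters TTTGAA or TTCGAA stood in 30 of the 40 member windows, 14.8% of the 15409 windows of genes tested and 19.2% of all 32851 windows. CCAAT stood in 70.0% of the member windows, 37.8% of the windows of genes tested and 37.4% of all windows. Both elements stood together in 65.0%, 6.06% and 7.53%. The 78 windows of other mitosis genes held the CHR letters in 56.4%, and the windows of S phase genes in 3 of 20. E2F letters (TTTCGCGC, TTTGGCGC, TTTCCCGC or TTTGCCGC) were in 10.0% of the member windows, 3.49% of the windows of genes tested, 2.27% of all windows and 45.0% of the S phase windows. A match of so few letters describes the sequence and is not a bound site.

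The windows of 6 members with CHR letters are shown, taken in the order of adjusted p, so that the arrangement can be read. Ccnb2 is at chr9:70421505-70421804 (minus strand), Cdc20 at chr4:118437294-118437593 (minus strand), Prc1 at chr7:80294201-80294500 (plus strand), Bub1 at chr2:127831810-127832109 (minus strand), Ube2c at chr2:164769679-164769978 (plus strand) and Cenpf at chr1:189688037-189688336 (minus strand). Each is written 5′ to 3′ on the strand of its gene, and capitals mark the CHR and CCAAT letters in either orientation.
Ccnb2: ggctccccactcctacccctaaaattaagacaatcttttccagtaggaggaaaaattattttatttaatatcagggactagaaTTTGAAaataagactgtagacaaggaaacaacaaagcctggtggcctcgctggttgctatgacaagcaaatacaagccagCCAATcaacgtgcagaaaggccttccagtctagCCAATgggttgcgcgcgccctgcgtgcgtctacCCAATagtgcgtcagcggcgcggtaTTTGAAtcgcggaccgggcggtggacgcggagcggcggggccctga
Cdc20: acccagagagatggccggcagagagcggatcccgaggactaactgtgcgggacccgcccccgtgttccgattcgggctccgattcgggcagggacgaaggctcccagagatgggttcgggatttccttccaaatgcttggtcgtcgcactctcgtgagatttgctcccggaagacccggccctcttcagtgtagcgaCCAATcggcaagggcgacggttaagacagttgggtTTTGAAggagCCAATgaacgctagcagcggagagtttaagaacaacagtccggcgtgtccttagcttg
Prc1: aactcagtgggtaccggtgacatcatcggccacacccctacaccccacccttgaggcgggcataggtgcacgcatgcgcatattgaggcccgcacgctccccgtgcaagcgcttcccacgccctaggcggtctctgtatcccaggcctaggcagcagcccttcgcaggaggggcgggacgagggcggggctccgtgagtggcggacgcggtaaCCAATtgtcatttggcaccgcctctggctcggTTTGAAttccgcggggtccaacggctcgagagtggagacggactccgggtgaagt
Bub1: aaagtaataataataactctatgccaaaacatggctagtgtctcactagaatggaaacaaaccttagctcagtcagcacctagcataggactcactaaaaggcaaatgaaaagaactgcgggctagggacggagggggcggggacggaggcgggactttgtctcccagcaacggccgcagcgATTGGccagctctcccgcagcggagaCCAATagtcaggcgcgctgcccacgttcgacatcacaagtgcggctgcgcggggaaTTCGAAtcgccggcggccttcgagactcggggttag
Ube2c: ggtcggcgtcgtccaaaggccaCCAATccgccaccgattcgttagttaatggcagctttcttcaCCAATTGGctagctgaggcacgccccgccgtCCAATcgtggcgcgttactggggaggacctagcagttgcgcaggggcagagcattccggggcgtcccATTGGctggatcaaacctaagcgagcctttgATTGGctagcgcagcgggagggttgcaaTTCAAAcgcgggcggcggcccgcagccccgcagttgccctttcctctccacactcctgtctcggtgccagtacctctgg
Cenpf: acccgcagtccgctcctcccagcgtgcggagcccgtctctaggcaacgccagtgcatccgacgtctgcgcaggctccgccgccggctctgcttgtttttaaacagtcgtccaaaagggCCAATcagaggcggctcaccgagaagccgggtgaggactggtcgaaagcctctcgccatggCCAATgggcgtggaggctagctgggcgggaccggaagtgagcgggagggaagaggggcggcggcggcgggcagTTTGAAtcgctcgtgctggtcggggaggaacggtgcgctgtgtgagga
In Ccnb2, 3 CCAAT boxes precede a CHR that lies just past the start, with another CHR match further upstream, and in Ube2c 6 CCAAT matches precede the CHR, 2 of which share bases in the palindromic run. Across the member windows the centre of the CHR letters was at a median of -14 bases from the start (42 matches) and that of CCAAT at -67.5 bases (64 matches), where negative values lie before the start.

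**Figure D3:**
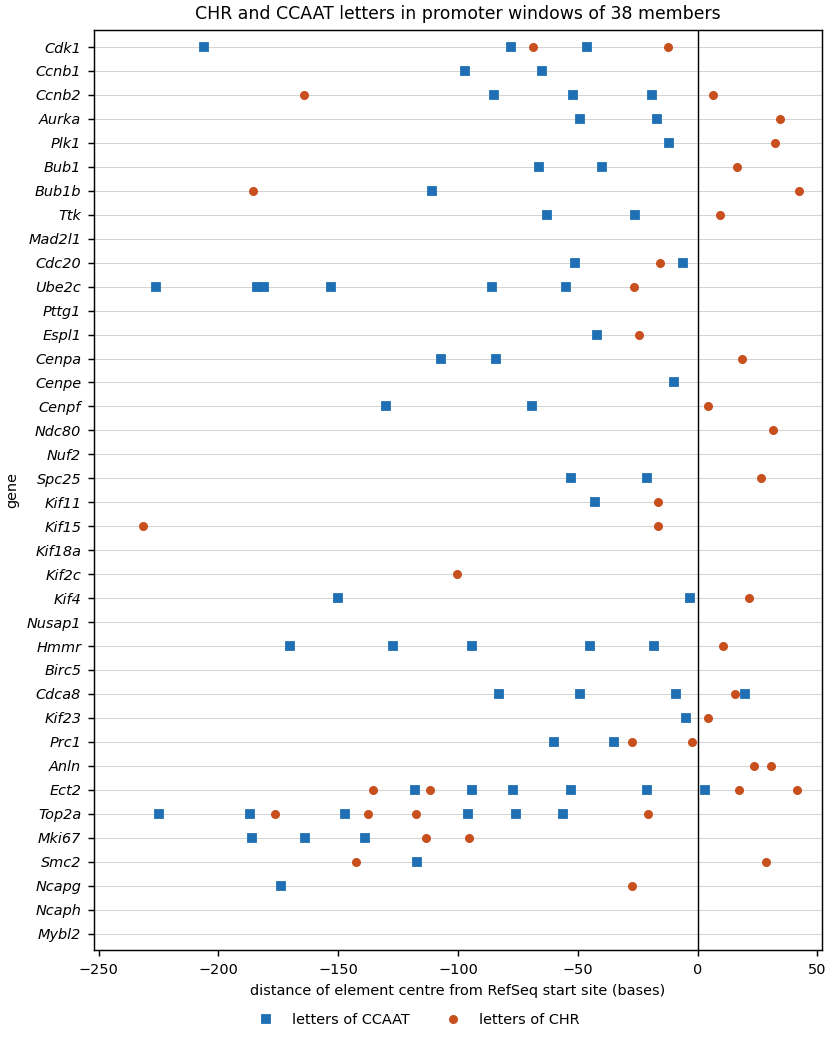
Distance in bases of each CHR match (circles) and each CCAAT match (squares) from the RefSeq start of the 38 members with a promoter window (y axis, matches of members with more than 1 window drawn in 1 row). CHR matches centre on -14 bases and CCAAT matches on -67.5 bases, and some members, such as Birc5 and Kif18a, have neither.

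All 7 members of the group of Cdk1, cyclins and entry kinases rose in si mH2A1.1 against si mH2A1.2, with a median log2 fold change of 1.31, and 1 of 7 was called against the controls with si mH2A1.1. DESeq2 called 4 higher with si mH2A1.1 and 0 in the other knockdown. At an unadjusted p below 0.05 edgeR had 5 higher after the first knockdown and 3 lower after the second. Cdk1, the kinase that drives entry into mitosis, was at 46.95, 41.8 and 31.5 CPM in the controls, 99.5, 40.3 and 62.1 CPM with si mH2A1.1 and 29.1, 26.1 and 26.5 CPM with si mH2A1.2. The si mH2A1.2 samples were all below the controls, while si mH2A1.1 replicate 2 lay within the range of the controls. Between the knockdowns the log2 fold change was 1.31 ± 0.27 (edgeR adjusted p = 0.00858). Ccna2, cyclin A of the S and G2 phases, was at 43.9, 37.1 and 31.8 CPM in the controls, 97.1, 44.1 and 63.7 CPM with si mH2A1.1 and 33.8, 20.7 and 25.1 CPM with si mH2A1.2, and here the 3 si mH2A1.1 samples exceeded every other sample, replicate 2 by a small margin over control 1. Its log2 fold change was 1.36 ± 0.27 (edgeR adjusted p = 0.00687) between the knockdowns and 0.86 ± 0.27 (edgeR adjusted p = 0.063) for si mH2A1.1 against the controls. The mitotic cyclin gene Ccnb1 was at 39.03, 29.9 and 22.7 CPM in the controls, 63.2, 31.4 and 39.5 CPM with si mH2A1.1 and 28.6, 20.7 and 20.01 CPM with si mH2A1.2, so that the knockdown groups were separate but each overlapped the controls (0.95 ± 0.27 (edgeR adjusted p = 0.0302) between the knockdowns).

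Ccnb2, the other mitotic cyclin, had controls that lay close together, and its 3 groups did not overlap. It was at 18.5, 17.3 and 16.6 CPM in the controls, 35.7, 20.7 and 22.3 CPM with si mH2A1.1 and 13.5, 11.5 and 10.5 CPM with si mH2A1.2. This gave the smallest adjusted p of the members, with a log2 fold change of 1.15 ± 0.20 (edgeR adjusted p = 0.0036) between the knockdowns, 0.58 ± 0.19 (edgeR adjusted p = 0.0775) for si mH2A1.1 and -0.56 ± 0.20 (edgeR adjusted p = 0.189) for si mH2A1.2 against the controls. Cdc25c, a phosphatase that activates Cdk1, was at 8.03, 7.41 and 6.06 CPM in the controls, 12.8, 7.34 and 8.96 CPM with si mH2A1.1 and 5.62, 4.28 and 2.82 CPM with si mH2A1.2. All si mH2A1.2 samples were below the controls, and the log2 fold change between the knockdowns was 1.195 ± 0.27 (edgeR adjusted p = 0.0122). Plk1, a kinase needed for centrosome maturation and for many later steps, was at 15.8, 11.99 and 9.44 CPM in the controls, 38.2, 18.3 and 22.7 CPM with si mH2A1.1 and 12.4, 7.46 and 8.54 CPM with si mH2A1.2. It was 1 of the 4 members called against the controls, at 1.09 ± 0.29 (edgeR adjusted p = 0.0417), and it differed by 1.48 ± 0.30 (edgeR adjusted p = 0.00729) between the knockdowns. The remaining member, Aurka, the centrosomal Aurora kinase, differed by 1.38 ± 0.29 (edgeR adjusted p = 0.00919) between the knockdowns.

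The 8 genes of the spindle checkpoint and of anaphase were all called higher in si mH2A1.1 than in si mH2A1.2, with a median log2 fold change of 1.25, and none was called against the controls by edgeR. DESeq2 called 4 of them higher with si mH2A1.1 and 0 in the other knockdown, and at an unadjusted p below 0.05 edgeR had 7 higher after the first knockdown and 3 lower after the second. Bub1, a checkpoint kinase at the kinetochore, was at 24.7, 20.2 and 15.2 CPM in the controls, 47.5, 23.8 and 33.4 CPM with si mH2A1.1 and 16.1, 11.4 and 13.7 CPM with si mH2A1.2. The si mH2A1.1 samples were above the si mH2A1.2 samples, and replicate 2 lay just under control 1. The log2 fold change between the knockdowns was 1.35 ± 0.25 (edgeR adjusted p = 0.00556). Cdc20, the activator of the anaphase-promoting complex that the checkpoint restrains, was at 28.1, 25.8 and 21.4 CPM in the controls, 59.4, 28.2 and 35.6 CPM with si mH2A1.1 and 18.4, 16.8 and 14.7 CPM with si mH2A1.2. Its 3 groups were separate, though si mH2A1.1 replicate 2 was barely above control 1. Its log2 fold changes were 0.71 ± 0.24 (edgeR adjusted p = 0.0769) and -0.59 ± 0.24 (edgeR adjusted p = 0.254) against the controls and 1.30 ± 0.24 (edgeR adjusted p = 0.00495) between the knockdowns. Bub1b, Ttk and Mad2l1, the other checkpoint genes, differed by 1.18 ± 0.27, 1.102 ± 0.30 and 0.77 ± 0.23 on the same scale between the knockdowns.

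Ube2c had the lowest log2 fold change of the members with si mH2A1.2. It encodes the ubiquitin-conjugating enzyme of the anaphase-promoting complex and was at 40.4, 29.2 and 25.2 CPM in the controls, 67.3, 35.1 and 38.9 CPM with si mH2A1.1 and 22.7, 17.4 and 14.6 CPM with si mH2A1.2. All si mH2A1.2 samples were below the controls, with a log2 fold change of -0.79 ± 0.27 (edgeR adjusted p = 0.173), and the knockdowns differed by 1.37 ± 0.27 (edgeR adjusted p = 0.00666). The exons of Ube2c share 592 bases, 22.8% of their length, with Tnnc2 on the other strand. Tnnc2, a troponin of fast muscle, was at 423, 379 and 628 CPM in the controls, 624, 528 and 557 CPM with si mH2A1.1 and 269.7, 249.6 and 418 CPM with si mH2A1.2, and differed by 0.87 ± 0.23 between the knockdowns (edgeR adjusted p = 0.0219). Whether the counting used strand is not stated, and the part of shared reads in the Ube2c values was not tested. Pttg1, the securin that holds separase inactive, was at 16.9, 18.7 and 15.1 CPM in the controls, 33.4, 18.7 and 20.04 CPM with si mH2A1.1 and 11.8, 11.3 and 8.54 CPM with si mH2A1.2. Its si mH2A1.2 samples were all below the controls, and the knockdowns differed by 1.19 ± 0.22 (edgeR adjusted p = 0.00515). Espl1, separase itself, was at 22.6, 17.3 and 14.00 CPM in the controls, 48.1, 23.04 and 33.8 CPM with si mH2A1.1 and 18.6, 11.5 and 11.4 CPM with si mH2A1.2, where the si mH2A1.1 samples were all above the controls, replicate 2 by a small margin, and the knockdowns differed by 1.34 ± 0.29 (edgeR adjusted p = 0.00969).

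Among the 7 genes of the centromere and kinetochore, 5 rose in si mH2A1.1 against si mH2A1.2 (median log2 fold change of the 7, 1.03), and edgeR called none against the controls. DESeq2 called 3 higher with si mH2A1.1 and 0 in the other knockdown, and at an unadjusted p below 0.05 edgeR had 5 higher after the first knockdown and 2 lower after the second. Cenpe, a kinesin that carries chromosomes to the spindle equator, was at 41.1, 35.9 and 29.1 CPM in the controls, 82.1, 43.3 and 60.4 CPM with si mH2A1.1 and 37.99, 24.8 and 21.9 CPM with si mH2A1.2. Its si mH2A1.1 samples exceeded all others, and the knockdowns differed by 1.13 ± 0.26 (edgeR adjusted p = 0.0121). Cenpf, a large kinetochore protein, was at 58.9, 48.4 and 42.1 CPM in the controls, 85.3, 55.6 and 71.97 CPM with si mH2A1.1 and 44.95, 31.6 and 31.6 CPM with si mH2A1.2, so that its si mH2A1.1 samples again lay above all si mH2A1.2 samples (0.98 ± 0.19 (edgeR adjusted p = 0.0067)) while replicate 2 overlapped the controls. Of the 4 subunits of the Ndc80 complex, the coupling between kinetochore and microtubule, Nuf2 and Spc25 were called between the knockdowns, at 1.11 ± 0.28 and 1.36 ± 0.33, and Ndc80 and Spc24 were not. Ndc80 was at 11.9, 7.83 and 5.52 CPM in the controls, 23.3, 13.9 and 15.5 CPM with si mH2A1.1 and 12.8, 5.92 and 7.06 CPM with si mH2A1.2. Here si mH2A1.2 replicate 1 was above all controls, and the log2 fold change was 1.03 ± 0.34 (edgeR adjusted p = 0.0524) between the knockdowns, 1.06 ± 0.34 (edgeR adjusted p = 0.0687) for si mH2A1.1 and 0.03 ± 0.34 (edgeR adjusted p = 0.979) for si mH2A1.2. For Spc24 the knockdowns differed by 0.83 ± 0.30 (edgeR adjusted p = 0.0713). Cenpa, the histone that marks the centromere, differed by 0.82 ± 0.19 (edgeR adjusted p = 0.0145).

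Of the 8 kinesin and spindle assembly genes, 7 rose in si mH2A1.1 against si mH2A1.2, with a median log2 fold change of 1.02, and 1 was called in si mH2A1.1 against the controls. DESeq2 called 3 higher with si mH2A1.1 and 0 in the other knockdown. At an unadjusted p below 0.05 edgeR had 7 higher after the first knockdown and 1 lower after the second. Kif11, the motor that pushes the spindle poles apart, was at 28.4, 24.01 and 17.02 CPM in the controls, 58.9, 31.8 and 42.9 CPM with si mH2A1.1 and 23.3, 15.9 and 16.5 CPM with si mH2A1.2. All si mH2A1.1 samples were above the controls, with a log2 fold change of 0.94 ± 0.25 (edgeR adjusted p = 0.0389), and the knockdowns differed by 1.26 ± 0.25 (edgeR adjusted p = 0.00709). Tpx2, which activates Aurka on spindle microtubules, was at 49.7, 45.5 and 34.9 CPM in the controls, 88.8, 49.8 and 61.4 CPM with si mH2A1.1 and 42.1, 30.6 and 30.5 CPM with si mH2A1.2, and si mH2A1.1 replicate 2 was barely above control 1. The knockdowns differed by 0.96 ± 0.22 (edgeR adjusted p = 0.0129). Nusap1, a protein that bundles spindle microtubules, was at 23.4, 18.04 and 14.8 CPM in the controls, 41.9, 21.98 and 28.6 CPM with si mH2A1.1 and 16.1, 8.66 and 10.8 CPM with si mH2A1.2. It had the lowest log2 fold change of this group with si mH2A1.2, -0.67 ± 0.28 (edgeR adjusted p = 0.28), where its samples overlapped the controls, and a difference of 1.38 ± 0.28 (edgeR adjusted p = 0.00786) between the knockdowns. Kif18a, a motor that damps chromosome movement at the equator, was the exception, at 5.97, 5.09 and 3.07 CPM in the controls, 9.26, 4.89 and 7.79 CPM with si mH2A1.1 and 5.67, 5.04 and 5.29 CPM with si mH2A1.2. Its groups overlapped throughout, and the knockdowns differed by 0.46 ± 0.27 (edgeR adjusted p = 0.257). Kif15, Kif2c, Kif4 and Hmmr, which also act on spindle microtubules, differed by 0.95 ± 0.26, 1.08 ± 0.28, 1.21 ± 0.31 and 0.91 ± 0.21 between the knockdowns.

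All 9 genes of the chromosomal passenger complex and of cytokinesis rose in si mH2A1.1 against si mH2A1.2 (median log2 fold change 1.02), and Birc5 and Kif23 were also called in si mH2A1.1 against the controls. DESeq2 called 4 higher with si mH2A1.1 and 1 lower in the other knockdown. At an unadjusted p below 0.05 edgeR had 7 higher after the first knockdown and 2 lower after the second. The 4 subunits of the passenger complex, which corrects wrong attachments and then moves to the midzone, were called together. Birc5, or survivin, was at 21.1, 16.9 and 14.3 CPM in the controls, 48.7, 22.7 and 30.7 CPM with si mH2A1.1 and 15.1, 10.7 and 10.4 CPM with si mH2A1.2. The si mH2A1.1 samples were above the controls, with a log2 fold change of 0.96 ± 0.27 (edgeR adjusted p = 0.0445), and the difference of 1.49 ± 0.27 (edgeR adjusted p = 0.00451) between the knockdowns was the largest of all members. Aurkb, the kinase of the complex, was at 15.6, 12.6 and 10.3 CPM in the controls, 28.6, 12.3 and 21.2 CPM with si mH2A1.1 and 10.4, 7.49 and 7.600 CPM with si mH2A1.2, where si mH2A1.1 replicate 2 was within the controls and the knockdowns differed by 1.28 ± 0.28 (edgeR adjusted p = 0.011). Incenp and Cdca8, its scaffold subunits, differed by 0.96 ± 0.27 and 1.02 ± 0.24.

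Kif23, a kinesin of the central spindle that was singled out after its values were seen, was at 18.8, 17.2 and 13.9 CPM in the controls, 41.2, 20.9 and 27.7 CPM with si mH2A1.1 and 18.6, 13.4 and 13.2 CPM with si mH2A1.2. Its si mH2A1.1 samples were above all others (0.85 ± 0.24 (edgeR adjusted p = 0.0469) against the controls). Kif20a, another kinesin of the midzone, was at 43.1, 34.3 and 27.6 CPM in the controls, 85.97, 42.3 and 53.5 CPM with si mH2A1.1 and 33.1, 23.1 and 21.3 CPM with si mH2A1.2, and the knockdowns differed by 1.23 ± 0.27 (edgeR adjusted p = 0.0107). Its exons share 29.3% of their length with Cdc23 on the other strand, and Cdc23 was itself higher with si mH2A1.1 than in the controls, by 0.61 ± 0.09 (edgeR adjusted p = 0.00468), while it differed by 0.24 ± 0.09 between the knockdowns (edgeR adjusted p = 0.0785). Prc1, which cross-links midzone microtubules, was at 66.4, 60.4 and 46.74 CPM in the controls, 106, 63.1 and 82.5 CPM with si mH2A1.1 and 47.2, 36.3 and 36.5 CPM with si mH2A1.2, with the knockdown groups separate (1.07 ± 0.20 (edgeR adjusted p = 0.00496)). The remaining genes shape the cleavage furrow. Anln, or anillin, was at 98.7, 96.1 and 73.6 CPM in the controls, 121, 83.6 and 107 CPM with si mH2A1.1 and 68.9, 59.4 and 52.1 CPM with si mH2A1.2. Its si mH2A1.2 samples were all below the controls, the log2 fold change of -0.57 ± 0.16 (edgeR adjusted p = 0.108) had the smallest adjusted p of the members in that comparison, and with si mH2A1.1 the value was 0.22 ± 0.16 (edgeR adjusted p = 0.407). Ect2, the exchange factor that activates RhoA at the furrow, was at 23.3, 20.97 and 17.1 CPM in the controls, 40.9, 23.6 and 32.4 CPM with si mH2A1.1 and 18.7, 14.6 and 14.6 CPM with si mH2A1.2, where the si mH2A1.1 samples exceeded all others, and 1.02 ± 0.20 (edgeR adjusted p = 0.00686) between the knockdowns.

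The group of chromosome structure held the member with the smallest difference between the knockdowns. Of its 6 genes, 5 rose in si mH2A1.1 against si mH2A1.2 (median log2 fold change of the 6, 1.12), and edgeR called none against the controls, where DESeq2 called 4 higher with si mH2A1.1 and edgeR had 5 at an unadjusted p below 0.05. With si mH2A1.2 neither tool called any of them, and 0 passed at an unadjusted p below 0.05. Top2a, the topoisomerase that untangles sister chromatids, was at 166, 124 and 93.2 CPM in the controls, 281, 136 and 193 CPM with si mH2A1.1 and 110.1, 72.9 and 86.7 CPM with si mH2A1.2. The knockdowns were separate (1.18 ± 0.28 (edgeR adjusted p = 0.0145)), with si mH2A1.1 replicate 2 inside the range of the controls. Mki67, the gene of the proliferation marker that coats mitotic chromosomes, was named after its values were seen and was at 124, 101 and 82.6 CPM in the controls, 250.4, 125 and 184 CPM with si mH2A1.1 and 108, 65.1 and 77.2 CPM with si mH2A1.2. Its si mH2A1.1 samples were above all others, if only by a fraction of a CPM for replicate 2, and the knockdowns differed by 1.16 ± 0.26 (edgeR adjusted p = 0.012). Smc2 and Smc4 form the core of condensin, yet only Smc2 was called. Smc2 was at 32.5, 23.3 and 21.3 CPM in the controls, 62.9, 29.5 and 49.5 CPM with si mH2A1.1 and 26.3, 16.8 and 24.3 CPM with si mH2A1.2, a difference of 1.07 ± 0.27 (edgeR adjusted p = 0.0194) between the knockdowns. Smc4 was at 118, 122 and 87.4 CPM in the controls, 142, 104 and 124 CPM with si mH2A1.1 and 93.98, 103 and 111 CPM with si mH2A1.2, with all 3 groups overlapping and a difference of 0.27 ± 0.15 (edgeR adjusted p = 0.227). The difference between Smc2 and Smc4 was not tested. Per kilobase of exon, Smc4 had the highest mean level of the members, 21.4 CPM per kb over the 9 samples, above 87.7% of the genes tested, and Kif18a, the member with the next smallest difference, had the lowest, 0.588 CPM per kb. Ncapg and Ncaph, subunits of condensin I, differed by 1.08 ± 0.27 and 1.19 ± 0.27.

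Both transcription factors that activate mitosis genes were called between the knockdowns. Foxm1 was at 32.3, 24.9 and 21.2 CPM in the controls, 69.3, 32.9 and 45.5 CPM with si mH2A1.1 and 22.8, 15.2 and 16.2 CPM with si mH2A1.2. Its si mH2A1.1 samples were above the controls, although replicate 2 exceeded control 1 by less than 1 CPM, and the log2 fold change was 0.91 ± 0.26 (edgeR adjusted p = 0.0521) against the controls and 1.45 ± 0.27 (edgeR adjusted p = 0.00517) between the knockdowns. Mybl2 had the largest standard error of the members and was at 5.59, 2.798 and 2.35 CPM in the controls, 13.4, 4.37 and 9.68 CPM with si mH2A1.1 and 4.38, 2.37 and 4.03 CPM with si mH2A1.2. Replicate 2 of si mH2A1.1 was below control 1 and just below si mH2A1.2 replicate 1, so neither comparison was free of overlap. Its log2 fold change was 1.35 ± 0.43 (edgeR adjusted p = 0.0479) between the knockdowns, 1.35 ± 0.43 (edgeR adjusted p = 0.0685) for si mH2A1.1 and 0.01 ± 0.44 (edgeR adjusted p = 0.996) for si mH2A1.2.

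**Figure D4:**
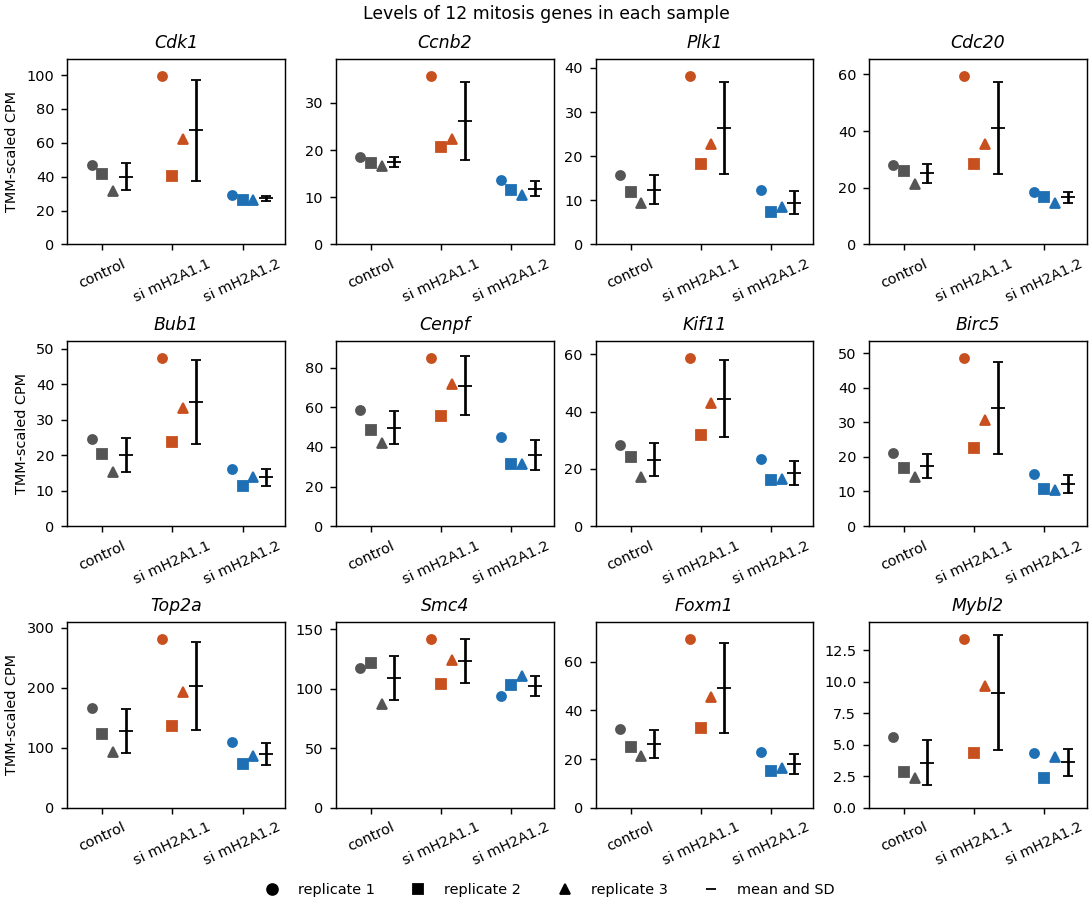
TMM-scaled CPM (y axis, from 0) of 12 members in the 3 groups (x axis), with a symbol for each replicate number and the mean and SD of each group beside it. For Cdk1 the si mH2A1.1 samples range from 40.3 to 99.5 CPM, the controls from 31.5 to 46.95 and the si mH2A1.2 samples from 26.1 to 29.1, while for Smc4 the 3 groups overlap.

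Other genes of the cycle were read beside the members. Of 80 other mitosis genes, 51 were called higher and 2 lower (Cit and Psrc1) in si mH2A1.1 against si mH2A1.2, with a median log2 fold change of 0.90, and against the controls 2 were higher and 1 lower with si mH2A1.1 and 1 lower with si mH2A1.2 (8 lower with the replicate block). With si mH2A1.1 DESeq2 called 23 higher and 1 lower. The replicate block gave 38 higher and 1 lower there, beside 11.1% and 9.70% of all genes. The call by edgeR with si mH2A1.2 was Cdc25b, a phosphatase that activates Cdk1, at -0.91 ± 0.15 (edgeR adjusted p = 0.018), and it differed by 0.95 ± 0.15 (edgeR adjusted p = 0.0022) between the knockdowns. Without the block, the edgeR calls with si mH2A1.1 were Cdc27 (0.47 ± 0.09 (edgeR adjusted p = 0.0142)), Cenph (1.02 ± 0.28 (edgeR adjusted p = 0.0426)) and Rad21 (-0.37 ± 0.10 (edgeR adjusted p = 0.039)). They encode a subunit each of the anaphase-promoting complex, the inner kinetochore and cohesin. Of 24 S phase genes, 18 were called higher between the knockdowns (median 1.07), 7 with si mH2A1.1 against the controls (median 0.94) and none with si mH2A1.2 by edgeR or DESeq2, where 1 was lower at an unadjusted p below 0.05 and the median was -0.16. DESeq2 called 18 with si mH2A1.1 against the controls, and so did edgeR with the replicate block. Among those called were Uhrf1 and Mcm3 between the knockdowns, at 1.91 ± 0.36 and 1.52 ± 0.35, and Tyms, Gins2 and Mcm7 against the controls, at 1.09 ± 0.25, 1.23 ± 0.32 and 0.73 ± 0.19.

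**Figure D5:**
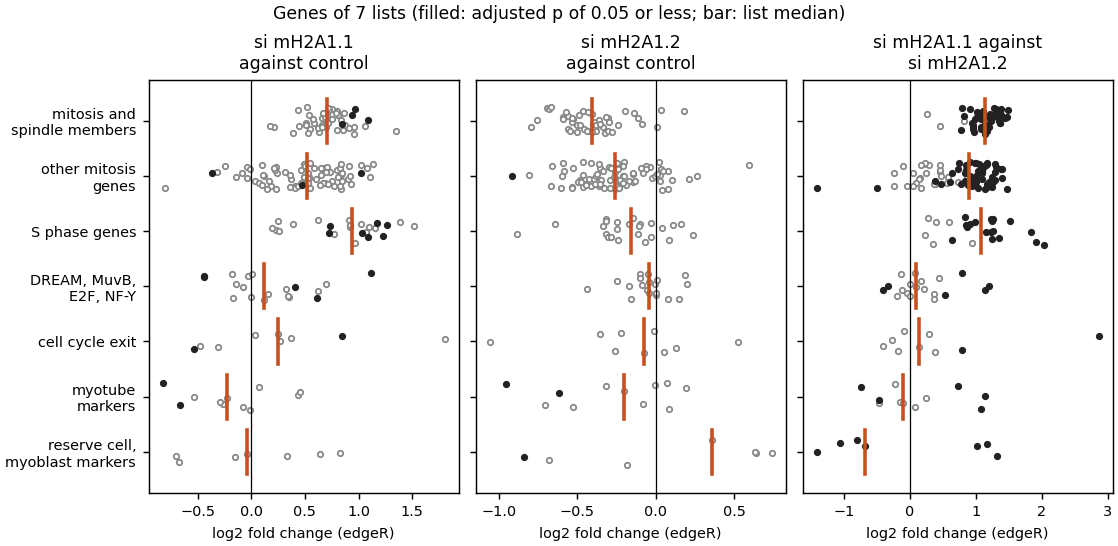
Log2 fold change (x axis, edgeR) of the members and of the genes of 6 other lists (rows) in the 3 comparisons, with filled points at an adjusted p of 0.05 or less and a bar at each list's median. In si mH2A1.1 against si mH2A1.2 the medians are 1.15 for the members, 0.90 for the other mitosis genes and 1.07 for the S phase genes, and 0.09 for the DREAM, MuvB, E2F and NF-Y genes.

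Of 19 genes of the DREAM, MuvB, E2F and NF-Y factors, which read the promoter elements above, 4 were called higher and 2 lower between the knockdowns, with a median log2 fold change of 0.09, and 3 higher and 2 lower with si mH2A1.1 against the controls. E2f2 was among the higher ones in both, at 1.202 ± 0.27 (edgeR adjusted p = 0.012) and 1.11 ± 0.27 (edgeR adjusted p = 0.0293), and so were the repressor genes Rbl1 (0.78 ± 0.21) and E2f7 (1.13 ± 0.31) between the knockdowns. The NF-Y subunits Nfya and Nfyc moved apart with si mH2A1.1, by -0.44 ± 0.10 and 0.61 ± 0.15. Neither edgeR nor DESeq2 called any of the 19 with si mH2A1.2, and 0 passed at an unadjusted p below 0.05. Of 9 genes of cell cycle exit, which include inhibitors of the cyclin-dependent kinases, 1 was called higher and 1 lower with si mH2A1.1, namely Ccnd1, cyclin D of the G1 phase (0.85 ± 0.14 (edgeR adjusted p = 0.00613)), and Gadd45a (-0.54 ± 0.14 (edgeR adjusted p = 0.0332)). Cdkn1c, an inhibitor of such kinases, was at 7.25, 7.81 and 3.996 CPM in the controls, 39.00, 19.1 and 8.34 CPM with si mH2A1.1 and 4.68, 2.95 and 1.53 CPM with si mH2A1.2, and with Ccnd1 it was called higher between the knockdowns (2.86 ± 0.56 (edgeR adjusted p = 0.00633)). With si mH2A1.2, edgeR and DESeq2 called none of the 9, 2 passed at an unadjusted p below 0.05, and edgeR with the replicate block called Cdkn1c lower. With si mH2A1.1 the block gave 2 higher and 2 lower.

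Markers of cell types moved in places with the groups. Of 11 myotube markers, 2 were lower with si mH2A1.1 than in the controls, Myog (-0.66 ± 0.14 (edgeR adjusted p = 0.0204)) and the fusion gene Mymx (-0.82 ± 0.18 (edgeR adjusted p = 0.0221)). DESeq2 called 1 higher and 3 lower there, and the replicate block 2 higher and 3 lower. At an unadjusted p below 0.05 edgeR had 2 higher and 3 lower. With si mH2A1.2, 2 were lower, Tnnt3 (-0.96 ± 0.18) and Des (-0.62 ± 0.14), to which the replicate block added Ckm. Between the knockdowns 3 were higher with si mH2A1.1 (Des, Ckm and Tnnt3, at 1.07 ± 0.14, 1.14 ± 0.18 and 0.73 ± 0.18) and 2 lower. Their summed level was 18735 to 27826 CPM in the controls, 17741 to 21467 CPM with si mH2A1.1 and 16156 to 20488 CPM with si mH2A1.2. Of 7 reserve cell and myoblast markers, 3 were higher and 4 lower in si mH2A1.1 against si mH2A1.2. Pax7 and Myf5, myogenic factors of undifferentiated cells, were higher (1.32 ± 0.27 and 1.17 ± 0.18), and Spry1 was lower (-0.79 ± 0.16). Against the controls edgeR called only Myf5 with si mH2A1.2, and it was lower (-0.84 ± 0.18 (edgeR adjusted p = 0.0422)). In that comparison DESeq2 called 1 higher and 1 lower, and the median log2 fold change of the 7 was 0.36. At an unadjusted p below 0.05 edgeR had 3 higher and 2 lower. With si mH2A1.1 edgeR called none of these markers, DESeq2 called 1 higher, and 2 were higher and 1 lower at an unadjusted p below 0.05. Their sum was 238 to 290.3 CPM in the controls, 239 to 346 CPM with si mH2A1.1 and 249 to 388 CPM with si mH2A1.2. Of 6 fibroblast and adipocyte markers, edgeR tested 5 and called none in any comparison, while at an unadjusted p below 0.05 there were 1, 3 and 2 in the order of the comparisons with the controls and between the knockdowns, and DESeq2 called 1 higher and 1 lower between the knockdowns. With the replicate block edgeR called 1 lower with si mH2A1.2, Fabp4, and also 1 of the list lower with si mH2A1.1. Fabp4 had few counts, 10, 18 and 54 in the controls, 4, 6 and 13 with si mH2A1.1 and 3, 5 and 9 with si mH2A1.2. Adipoq was at or near 0. Their sum was 296 to 404, 247 to 496 and 533 to 559 CPM in the same order, most of it Dcn, which other cells also express. The part of these cell types in the levels of the mitosis genes was not tested.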

How the data were processed

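RNA of C2C12 cells at day 4 of differentiation was measured in 9 samples, 3 per group, grouped by their labels. The authors selected polyadenylated RNA, sequenced single reads of 50 bp on average and quantified genes with Salmon (mouse build mm10 in the submitters' processing notes). The deposited table used here holds expected counts, that is Salmon's estimates for each gene in whole numbers, not normalized. The second deposited table, the same counts divided by a size factor per sample, was not used, and no table held columns of other samples. GENCODE M21 (GRCm38) named 52762 of 52780 genes, including all genes listed here. Genes were tested in R 4.3.3 with edgeR 4.0.16 (quasi-likelihood test, TMM, filterByExpr, Benjamini-Hochberg adjustment over 19545 genes), with the 9 samples in 1 model and 3 comparisons, at an adjusted p of 0.05 or less as in the study's methods. The script was checked on simulated data. The alternatives were DESeq2 1.42.0, DESeq2 size factors, other filters, a block for the replicate number, only the groups compared, a stricter threshold, and leaving out each sample.

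The mitosis genes and all gene lists were chosen with earlier results of these data known, so no test was run over a list and counts are read beside those of all genes. Described by sample were members called in any comparison (at most 16, by adjusted p), in each role group the member with the highest level per exon length and those with the largest absolute change in each knockdown, the cyclins, Cdk1, Foxm1 and Mybl2, and from other lists at most 3 called genes per comparison, of which 1 is not reported here. With 3 samples against 3, an exact test of a single gene cannot give a p below 0.1, so p-values come from the model across all genes. The titles give the same replicate numbers in each group without saying what they share. The column names of same-numbered samples also carry consecutive numbers. For control with si mH2A1.2, deviations from the group means over all genes correlated in each same-numbered pair (r = 0.331, 0.291 and 0.196, all above 0.1). Pairs of control with si mH2A1.1 correlated less (r = 0.087, 0.084 and 0.098). Blocked calls stand beside both comparisons. No 2 samples of a group agreed within counting noise. Intervals of depth cover counting error only. Whether the counting used strand is not given in the sources used here, so 7 members with exons that overlap a gene on the other strand by at least 10% of their length (Kif20a, Ube2c, Kif4, Ncapg, Cdc25c, Ccna2 and Prc1) may hold reads of that gene. Figures were drawn with matplotlib 3.10.9 in Python 3.11.15.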

Additional observations from a re-analysis of the deposited data

How the results depend on the processing

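Members called higher in si mH2A1.1 against the controls numbered 4. They numbered 24 with DESeq2 (4.85% of all genes called higher), 19 without a filter on low counts (3.67%) and 2 with only the groups of the comparison (5.84%). The number was 0 at the stricter threshold (adjusted p below 0.01, log2 change of 0.8 or more in size) and 0 to 33 with a sample left out. In si mH2A1.2 against the controls 0 were called lower, against 1 with DESeq2 and 0 to 2 with a sample left out (2 without si mH2A1.1 replicate 1). Between the knockdowns 43 were called higher, against 17 at the stricter threshold and 20 to 45 with a sample left out (24 without si mH2A1.1 replicate 1, 20 without si mH2A1.2 replicate 2). Counts over all genes moved too, from 1208 higher in si mH2A1.1 to between 389 and 1644, and from 2350 higher between the knockdowns to between 1218 and 2486. The median log2 fold changes kept their sign with each sample left out, at 0.39 to 0.92, -0.64 to -0.25 and 0.85 to 1.35. No member changed direction past a threshold in any alternative. The causes of these shifts were not tested.

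The labels give the groups the same replicate numbers. Deviations from the group means correlated by 0.084 to 0.331 between samples of the same number (above 0.1 in 5 of 9 pairs) and by -0.267 to 0.036 between others, so each sample correlated best with its own number. All 3 pairs passed 0.1 for control with si mH2A1.2. Not all did for the other comparisons (0.084 to 0.116), although every same-numbered pair correlated above every other pair. The main counts of all comparisons come from the model without the block. With the replicate block 38 members were called higher in si mH2A1.1 and 4 lower in si mH2A1.2 against the controls, and 45 higher between the knockdowns. Over all genes the same calls made up 11.1%, 2.25% and 15.4%. Over all genes the calls with DESeq2 were 1817 higher and 1537 lower in si mH2A1.1 and 617 and 496 in si mH2A1.2, where edgeR had 1208, 963, 268 and 192. The replicate block gave 2170, 1895, 566 and 439. A count of 3 stood for at most 0.0826 CPM, below the level of each member in each sample.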
